A study of Mus musculus with 11 samples.

Results

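The Hist1, Hist2, Hist3 and Hist4 gene clusters of the mouse encode the core and linker histones that package newly copied DNA. They were examined here in whole hearts profiled by RNA sequencing. A gene was taken as a member when the deposited table calls it protein coding and its symbol begins with Hist1h, Hist2h, Hist3h or Hist4h. This gave 67 members among 54532 genes. Of these, 54 lie in Hist1 on chromosome 13, between 21715763 and 23934851, and 10 in Hist2 on chromosome 3, between 96219865 and 96270132 (mm10 coordinates as deposited). Hist3 on chromosome 11 holds 2 members and Hist4 on chromosome 6 holds 1. By product, 6 members encode linker histone H1, 18 encode H2A, 18 encode H2B, 12 encode H3 and 13 encode H4.

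The 11 libraries came from whole heart tissue of C57BL/6 mice, all labelled with a time of 26 weeks. There were 3 libraries on chow and 4 with HFD+STZ, which in diabetic mouse models is usually high-fat feeding plus the beta-cell toxin streptozotocin, though the labels do not expand it. A further 4 libraries carried HFD+STZ together with AAV METTL3 and are called METTL3 here. AAV commonly means an adeno-associated virus, and METTL3 is the catalytic subunit of the enzyme that methylates adenosine in messenger RNA. The labels name neither the promoter of the delivered METTL3 nor a control virus for the HFD+STZ mice, and do not give sex or pooling. Ribosomal RNA was depleted rather than poly(A) RNA selected, so transcripts without a poly(A) tail could enter the libraries.

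Libraries held 13900531 to 16952639 counts, of which 7651470 to 12994921 were nuclear. Mitochondrial counts made up 9.28% to 32.5% of chow and HFD+STZ libraries and 37.7% to 45.5% of METTL3 libraries. Mettl3 itself lay at 6.35 ± 1.58 CPM (CPM, counts scaled to library size with TMM factors; SD, n = 4) in HFD+STZ and 8.39 ± 2.19 CPM (SD, n = 4) in METTL3 hearts, with ranges that overlap. Cardiomyocyte markers such as Myh6, Tnnt2 and Ryr2 had counts in every library, with a sum over 10 genes of 40143 to 56813 CPM. Chow replicate 3 stood apart. It had the lowest mitochondrial share (9.28%) and the fewest genes with a count, 15734 against 17317 to 20769 elsewhere. Fold changes of members and list medians below that leaving it out moved strongly are also given without it.

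Replication-dependent histone genes are transcribed mainly in S phase, and most of their messages end not in a poly(A) tail but in a short stem-loop that the stem-loop binding protein SLBP recognises. A U7 small nuclear ribonucleoprotein guides the cut just after that stem-loop, and the messages are degraded when DNA replication ends. Most cardiomyocytes of the adult heart no longer divide, and some histone genes are known also to give longer, polyadenylated messages in cells that have left the cycle. Replacement variants such as H3.3, H2A.Z and H1.0 are encoded elsewhere, carry introns or poly(A) signals in most cases, and are made throughout the cell cycle.

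The stem-loop is the feature known to mark most of these genes at their 3′ ends. It is shown for some of the more counted members in which it was found, and for Hist1h1t. No match was found in Hist1h2bc or Hist2h2be, which are also among the most counted. It was searched by its conserved letters (GG then, past any pair of bases, CTTTT, then past any base AG and, past any pair of bases, CC) after the stop codon, on the sense strand of the annotated transcripts (GENCODE M21, whose coordinates match the deposited ones for all 67 members). It was found in 44 members, in 6 distinct sequences, and in 61 of 21901 protein-coding genes in all (0.279%), of which 17 are not members. Capitals mark the stem-loop and lower case the 5 bases on either side.
Hist1h1c: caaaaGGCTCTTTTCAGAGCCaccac
Hist1h2be: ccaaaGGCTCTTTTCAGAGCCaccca
Hist3h2a: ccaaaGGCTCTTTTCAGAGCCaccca
Hist1h4h: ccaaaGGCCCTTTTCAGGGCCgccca
Hist1h4i: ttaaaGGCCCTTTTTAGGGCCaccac
Hist1h1t: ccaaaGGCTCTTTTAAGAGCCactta
The loops of Hist1h1c, Hist1h2be and Hist3h2a share the sequence found in 26 members (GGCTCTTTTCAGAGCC), which covers H1, H2A, H2B and H3 genes. That of Hist1h4h (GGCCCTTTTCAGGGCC) was found in 7 members, all of them H4 genes. In Hist1h1c it lies at chr13:23739512-23739527, 24 bases after the stop codon, and in Hist1h4h at chr13:23531458-23531473, 31 bases after it. Hist1h1t, a testis linker histone gene, carries another form, shared by 6 members. It had 0 counts in every library.

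Histone counts were few and were concentrated in a handful of genes. The 67 members together took 28631 of 167690652 counts over the 11 libraries. The linker histone gene Hist1h1c (ENSMUSG00000036181, chr13:23738808-23740367) took 13669 of them and the H2B gene Hist1h2bc (ENSMUSG00000018102, chr13:23684199-23692908) 9203, together 79.9%. Hist1h4h, an H4 gene, followed with 1811 counts, the H2B gene Hist2h2be with 1066 and the H2B gene Hist1h2be with 816, and these 5 genes made up 92.8%. Per kilobase of gene length the order began with the same 4 genes: Hist1h1c at 51.5 CPM per kilobase, Hist1h2bc at 47.5, Hist1h4h at 22.2 and Hist2h2be at 2.38. Hist1h2be, which has a length of 4446 bases in the table, dropped to rank 7 by that measure, at 1.11 CPM per kilobase.

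At the other end, 19 members had 0 counts in all 11 libraries, which allows up to 0.0179 CPM each over the whole data set (a floor of 3 counts, covering counting error only). They were 9 H2A, 4 H2B, 4 H3, 1 H1 and 1 H4 genes. Of the 48 members with a count, 14 had counts in every library, and 38 had between 1 and 101 counts in all. By product, H1 genes took 48.8% of histone counts, H2B genes 40.1%, H4 genes 7.67%, H3 genes 1.77% and H2A genes 1.66%. A nucleosome holds H2A, H2B, H3 and H4 in equal numbers, and the shares of counts of their genes were not equal.

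Many members are near-identical copies, and no source used here states how ambiguous reads were assigned among them. To show where this could matter, each gene was scored by the share of its 50-base windows that occur in no other annotated gene. That share was 91.5% for Hist1h1c, 69.9% for Hist1h2bc, 54.2% for Hist1h4h, 100% for Hist2h2be and 36.5% for the H3 gene Hist2h3c2. The 16 members under 20% unique held 67 counts together (0.234%). Hist2h2aa2 and Hist2h3c1, with no unique window, were at 0. Of the 16 members under 20% unique, 8 were at 0. Of the other 51 members, 11 were at 0, a smaller share, among them the testis gene Hist1h1t, which is 100% unique. A lack of unique sequence thus goes with some of the zeros and not with others. Values of members under 20% unique are uncertain to that degree, and summed values are given where possible.

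**Figure D1:**
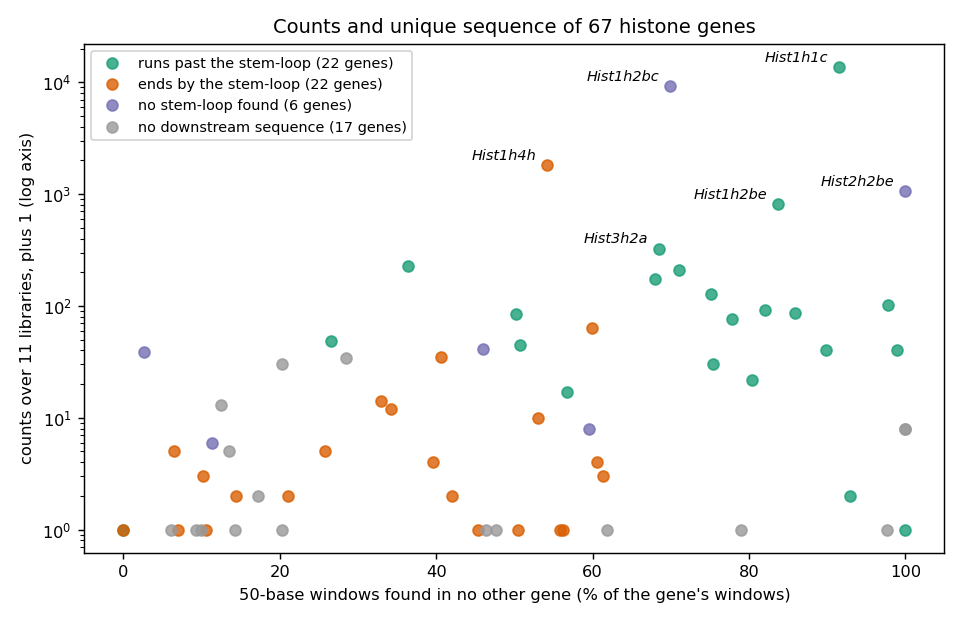
Counts over 11 libraries plus 1 (log axis) of each of the 67 members, against the percentage of its 50-base windows found in no other gene; colours give the form of the annotated 3′ end. Hist1h1c, Hist1h2bc, Hist1h4h and Hist2h2be hold 1066 to 13669 counts with 54.2% to 100% unique windows, and members at the left edge lie low.

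Members were then grouped by how their annotated transcript ends, with limits chosen after the counts were seen. In 22 members the transcript runs over 100 bases past the stem-loop, as in Hist1h1c (840 bases), Hist3h2a (1643 bases) and Hist1h4i (330 bases). These took 16218 counts, with a median of 79.5 per gene. In another 22 the transcript ends at most 100 bases after it, as in Hist1h4h (46 bases), and these took 1961 counts with a median of 2, of which Hist1h4h alone gave 1811. Annotated transcripts of 17 members hold under 50 bases after the stop codon, so no stem-loop could be searched, and they took 93 counts. The remaining 6, with 10359 counts, include Hist1h2bc, whose annotated transcript has 2 exons, and Hist2h2be, where no match to the searched letters was found. Gene length, uniqueness and the extent of the annotation differ between these sets, and their part in the counts was not tested.

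H2A and H2B genes lie in head-to-head pairs that share a stretch of upstream sequence, and 12 such pairs with a gap under 500 bases were found among the members. The H2B gene had more counts than its H2A partner in 9 pairs, the H2A gene in 1, and both were at 0 in 2. Among the 9, Hist1h2bl, Hist1h2bn, Hist1h2br and Hist1h2bk had only 1, 4, 5 and 4 counts, against 0 for their partners. Hist1h2bq had 38 counts and its partner Hist1h2ao 4. In each of the pairs just named, a gene had at most 13.6% unique windows, so its values are uncertain. The tally of 9 to 1 is therefore not a general result for H2B over H2A genes. Hist1h2bc had 9203 counts and its partner Hist1h2ac 85, across a gap of 250 bases, a 232-fold difference per kilobase. That figure uses the full annotated length of Hist1h2ac, 2482 bases, of which 2010 lie past the stem-loop. Hist1h2bc ranged from 599 to 1314 counts per library and Hist1h2ac from 3 to 16, and the H2B gene was higher in 11 of 11 libraries. Hist2h2be had 1066 counts and Hist2h2ac 2 across 238 bases, a 106-fold difference per kilobase. Again the H2B gene was higher in 11 of 11 libraries. Hist1h2bg had 83 counts and Hist1h2ae 16, while Hist1h2bf (11 counts) and Hist1h2ad (13 counts) were level. The 2 H2A genes opposite the abundant H2B genes were not members of low uniqueness, at 85.9% for Hist1h2ac and 61.4% for Hist2h2ac.

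**Figure D2:**
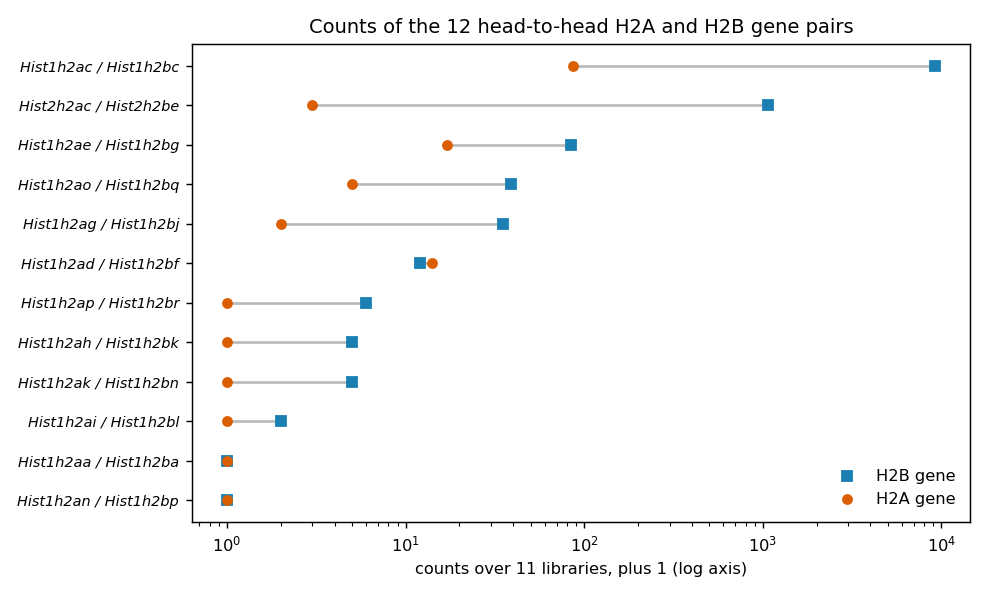
Counts over 11 libraries plus 1 (log axis) of the H2A gene (circle) and the H2B gene (square) of each of 12 head-to-head pairs, joined by a line. The Hist1h2ac/Hist1h2bc and Hist2h2ac/Hist2h2be pairs are the widest apart, at 85 against 9203 and 2 against 1066 counts.

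The sequences between these pairs are shown because both genes of a pair start from them and yet differ in counts. Upstream sequences came from RefSeq (GRCm38.p6, which is mm10), where 62 of 67 members were matched by symbol or synonym. Each is the 250 bases before the start, read 5′ to 3′ on the strand of the gene named first, with capitals for matches on either strand to the TATA box letters TATAAA, the CCAAT box, or the octamer ATTTGCAT. The intervals are chr13:23683960-23684209 on the minus strand, chr3:96220881-96221130 on the minus strand, chr13:23738557-23738806 on the plus strand and chr13:23530794-23531043 on the plus strand.
Hist1h2ac and Hist1h2bc: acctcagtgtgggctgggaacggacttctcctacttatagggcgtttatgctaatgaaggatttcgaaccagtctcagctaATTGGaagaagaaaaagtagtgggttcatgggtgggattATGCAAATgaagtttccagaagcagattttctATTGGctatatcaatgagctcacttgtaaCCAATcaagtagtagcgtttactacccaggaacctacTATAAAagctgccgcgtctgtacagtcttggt
Hist2h2ac and Hist2h2be: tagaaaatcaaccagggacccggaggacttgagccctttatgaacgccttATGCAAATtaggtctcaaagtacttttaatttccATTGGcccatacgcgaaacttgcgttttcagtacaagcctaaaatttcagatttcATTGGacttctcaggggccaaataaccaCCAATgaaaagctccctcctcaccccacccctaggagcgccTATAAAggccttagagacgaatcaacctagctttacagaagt
Hist1h1c: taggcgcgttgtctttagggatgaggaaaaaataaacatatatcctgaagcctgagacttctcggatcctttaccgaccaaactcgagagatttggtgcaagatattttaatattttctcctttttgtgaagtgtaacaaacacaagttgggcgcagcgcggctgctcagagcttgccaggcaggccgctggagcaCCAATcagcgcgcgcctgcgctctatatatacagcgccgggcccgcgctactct
Hist1h4h: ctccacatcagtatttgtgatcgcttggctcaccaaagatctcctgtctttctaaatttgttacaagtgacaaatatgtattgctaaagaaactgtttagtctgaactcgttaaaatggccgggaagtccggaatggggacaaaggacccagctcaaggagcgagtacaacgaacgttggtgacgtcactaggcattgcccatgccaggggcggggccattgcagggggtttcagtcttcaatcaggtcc
Both shared stretches hold 1 TATAAA, 3 CCAAT and 1 ATTTGCAT match, the Hist1h1c stretch 1 CCAAT match, and the Hist1h4h stretch none of the 3. In both shared stretches the TATAAA match is on the strand of the H2A gene. It lies toward the H2A start and away from the H2B start. No match says only that these letters are not in this window. Over the 300-base windows of the table, from 250 bases before to 50 after the start, TATAAA was in 35 of 62 members (56.5%) against 14.2% of all 27025 genes with a promoter. CCAAT, the letters that the factor NF-Y binds, was in 53 of 62 members (85.5%) against 37.9%. It was in 50 of 50 windows of H1, H2A, H2B and H3 genes and in 3 of 12 of H4 genes. ATTTGCAT, the octamer that Oct-1 binds, was in 13 members (20.97%) against 1.75%, 7 of 18 H2A and 6 of 16 H2B genes. Head-to-head partners share part of their window, so these are not independent. Of the 8 matched members with at least 110 counts, 6 held CCAAT and 3 TATAAA, against 47 and 32 of the 54 below that count. Those 8 leave out Hist1h2bc (9203 counts) and Hist2h2be (1066 counts), which had no window of their own. These shares may therefore not hold for the most counted members.

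The level of the gene set as a whole did not separate the groups. Summed over all members, chow libraries lay at 152, 137 and 208 CPM, HFD+STZ libraries at 158, 197, 173 and 166 CPM, and METTL3 libraries at 187, 171, 159 and 148 CPM. The means were 165 ± 37.5 (SD, n = 3), 173 ± 16.6 (SD, n = 4) and 166 ± 16.6 CPM (SD, n = 4), and each group's range overlaps the others. In whole hearts, fewer cells of a type and less RNA per cell cannot be told apart. Chow replicate 3 was the highest of the 11, and the other chow libraries lay below all HFD+STZ libraries but not below all METTL3 libraries. Scaled to raw library totals, with mitochondrial counts included, the means were 200.2 for chow, 175.1 for HFD+STZ and 143 for METTL3. On that scale chow replicate 2 (160.0), HFD+STZ replicate 3 (159.9) and METTL3 replicate 1 (161.0) were level, so the ranges overlap there too. The mitochondrial share, which was higher in METTL3 libraries, enters that scale. Without Hist1h1c and Hist1h2bc the remaining 65 members summed to 62.7 CPM in chow replicate 3 and to 27.7 to 36.5 CPM in the other 10 libraries.

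Hist1h1c encodes H1.2, the most counted linker histone here. It lay at 80.9, 66.6 and 71.2 CPM on chow, at 81.1, 97.0, 86.3 and 88.8 CPM in HFD+STZ and at 103, 69.2, 76.7 and 62.3 CPM in METTL3 hearts. Every HFD+STZ library was above every chow library, while METTL3 libraries ranged over both groups. Of the other H1 genes, Hist1h1e was at 1.55, 0.914 and 0 CPM on chow, 0.391 to 1.46 CPM in HFD+STZ and 0.538 to 2.51 CPM in METTL3 hearts. Hist1h1d ranged from 0.0755 to 1.59 CPM. Hist1h1a and Hist1h1b, the remaining linker histone genes with a count, had 7 counts each over all 11 libraries.

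Hist1h2bc encodes an H2B and lay at 40.5, 42.3 and 74.0 CPM on chow, at 48.2, 63.2, 52.8 and 47.4 CPM in HFD+STZ and at 54.8, 73.3, 53.3 and 53.7 CPM in METTL3 hearts. The highest value was that of chow replicate 3 and the lowest were those of the other chow libraries, so the chow range covered both other groups. How many of all genes have chow replicates 1 and 2 lowest was not counted. Hist2h2be was lowest in chow replicate 3, at 3.997 CPM against 6.67 and 7.82 in the other chow libraries, 5.98 to 7.43 in HFD+STZ and 4.85 to 6.99 in METTL3 hearts. Hist1h2be ranged from 4.09 to 4.66 CPM on chow, 3.63 to 5.41 in HFD+STZ and 4.48 to 7.27 in METTL3 hearts. Its annotated span overlaps part of the H1 gene Hist1h1e on the same strand, so some of their reads may not be separated.

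The H4 gene Hist1h4h lay at 4.61 and 7.63 CPM in chow replicates 1 and 2 and at 32.2 CPM in chow replicate 3. HFD+STZ libraries were at 9.49, 9.67, 11.3 and 7.61 CPM and METTL3 libraries at 5.64, 7.44, 8.91 and 10.1 CPM. Chow replicate 3 was thus 5.26 times the mean of the other chow libraries and above all 10 others. Hist1h4i, another H4 gene, showed the same library highest, at 3.26 CPM against 1.503 and 0.806 on chow, 0.614 to 1.46 in HFD+STZ and 0.227 to 1.84 in METTL3 hearts. Hist3h2a encodes an H2A and was at 1.71, 1.45 and 8.33 CPM on chow, at 1.90, 1.398, 0.697 and 1.34 CPM in HFD+STZ and at 0.627, 0.0836, 1.06 and 0.358 CPM in METTL3 hearts. All METTL3 libraries lay below all chow libraries, also below the 2 chow libraries other than replicate 3. Hist3h2a overlaps Trim17 on its strand and Gm44313 on the other, so its counts are uncertain to that degree.

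The H3 gene Hist2h3c2 was lower in chow replicate 3 (0.732 CPM) than in the other chow libraries (1.92 and 1.13 CPM). It ranged from 1.01 to 2.13 CPM in HFD+STZ and from 0.831 to 1.88 CPM in METTL3 hearts. Hist1h3d, also an H3 gene, lay at 0.699 to 1.18 CPM on chow, 0.223 to 1.34 in HFD+STZ and 0.227 to 1.25 in METTL3 hearts. Hist1h2ac, the H2A gene opposite Hist1h2bc, lay at 0.155 to 0.563 CPM on chow, 0.335 to 0.697 in HFD+STZ and 0.302 to 1.25 in METTL3 hearts. At these levels a library holds few reads of a gene, 3 to 16 for Hist1h2ac.

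**Figure D3:**
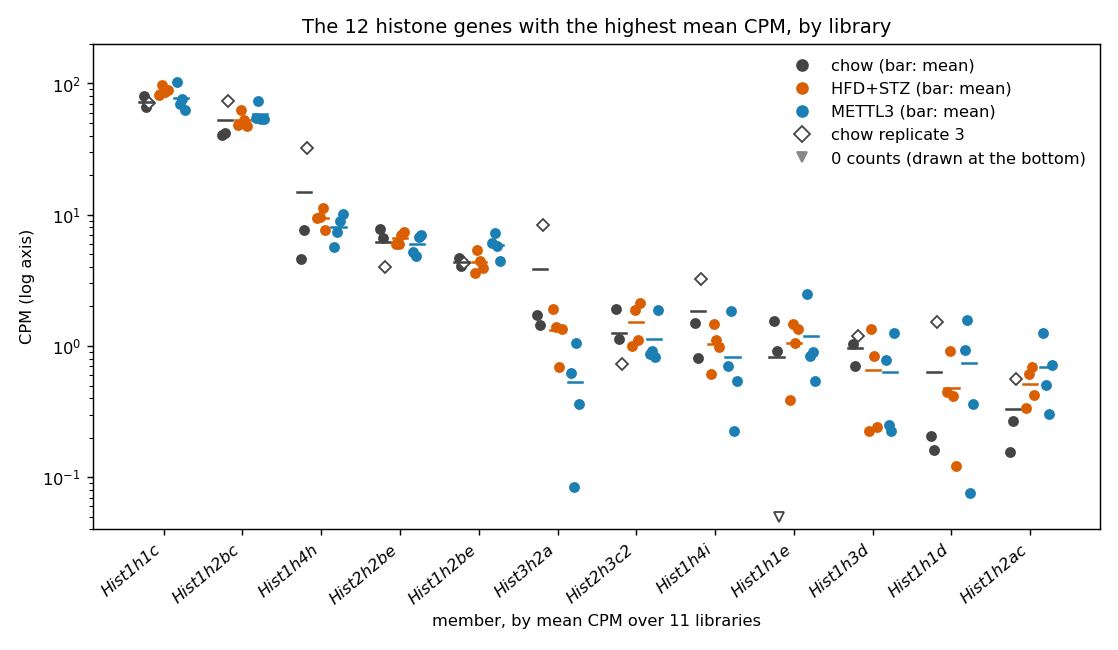
CPM (log axis) of the 12 members with the highest mean CPM in each of 11 libraries, coloured by group, with a bar at each group mean; open diamonds mark chow replicate 3 and a triangle a count of 0. Chow replicate 3 lies at 32.2 CPM for Hist1h4h and 8.33 CPM for Hist3h2a, above all other libraries, and at 0 for Hist1h1e.

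Chow replicate 3 differed from the other libraries in which members had counts. Among 31 members with at least 10 counts in all, it held the highest value of 7 and was at 0 for 14. Other libraries held the highest value of 0 to 5 members (5 in HFD+STZ replicate 2 and in METTL3 replicate 1). They were at 0 for 1 to 13, and METTL3 replicate 2 for 13. How many other genes with such counts are highest or at 0 in chow replicate 3 was not counted. These numbers may therefore not be particular to the members. The 7 were Hist1h2bc, Hist1h4h, Hist3h2a, Hist1h4i, Hist1h2bh, Hist3h2ba and Hist1h4j. Hist1h2bh was at 2.25 CPM there and at most 0.669 elsewhere, and Hist3h2ba at 2.36 CPM and at most 0.986. The 14 at 0 included Hist1h1e, with 175 counts in the other libraries, and the H3 genes Hist1h3e, Hist1h3f and Hist1h3g, with 48, 44 and 40. These members were named after their values were seen. The library's low number of detected genes and low mitochondrial share moved with these values, and their part was not tested.

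Fewer members had a count in METTL3 libraries than in HFD+STZ libraries. The number was 34, 35, 33 and 34 in HFD+STZ and 27, 20, 25 and 24 in METTL3 hearts, against 35, 33 and 17 on chow. With each library thinned to the smallest nuclear depth, 7651470 counts, the expected numbers were 30.6 to 32.1 in HFD+STZ and 19.9 to 26.5 in METTL3 hearts, so the groups did not overlap at equal depth either. All genes moved the same way, with 19190 to 19459 expected at that depth in HFD+STZ and 17267 to 18891 in METTL3 libraries. The mitochondrial share (28.6% to 32.5% and 37.7% to 45.5%) moved with these numbers too, and its part was not tested. The 54 members that did not enter the test summed to 4.20 to 5.90 CPM in HFD+STZ and to 2.01 to 5.20 CPM in METTL3 hearts, which overlap.

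For the tests between groups, 13 of the 67 members passed the filter on low counts and 54 did not, so the tests speak of those 13 genes only. Between HFD+STZ and chow, edgeR called 0 of 13 at a Benjamini-Hochberg adjusted p of 0.05, against 0.168% of all 14862 genes tested. At an unadjusted p under 0.05 edgeR had 0 of 13 against 12.1% of all genes, and DESeq2 and limma voom each called 0 (2.05% and 13.1% of all genes). DESeq2 gave Hist1h2ac and Hist1h2bb no adjusted p in this comparison, so it could not call them. Of the 13, 7 had a log2 fold change above 0 and 6 below. The median was 0.0016 (0.02 without chow replicate 3), and -0.02 over all genes tested.

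The 5 members with the smallest p in that comparison did not pass. Hist3h2a had a log2 fold change of -1.51 (SE 0.70, edgeR adjusted p = 0.414), which was -0.23 without chow replicate 3. Hist1h1c had 0.28 (SE 0.19, 95% interval -0.13 to 0.68, edgeR adjusted p = 0.546). Its groups did not overlap, as in 10.4% of all genes tested, and the two-sided exact permutation p was 0.0286, the smallest that 3 against 4 libraries can give. Hist1h4h had -0.64 (SE 0.50), which turned to 0.64 without chow replicate 3, Hist1h4i had -0.83 (SE 0.67) and Hist1h2ac 0.64 (SE 0.71), which became -0.15 and 1.25 without it. The interval of Hist1h2bc, the other abundant member, was -0.47 to 0.51 on the log2 scale, and its fold change without that library 0.36 (edgeR adjusted p = 0.55).

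Between METTL3 and HFD+STZ, the comparison that the series design names, edgeR called 0 of 13 members and 0% of all 14862 genes. At an unadjusted p under 0.05 edgeR had 0 of 13 members against 9.06% of all genes, and DESeq2 and limma voom called 0 members (0.868% and 2.66% of all genes). DESeq2 gave no adjusted p to Hist3h2a, Hist2h3c2, Hist1h4i, Hist1h1e, Hist1h3d, Hist1h1d, Hist1h2ac or Hist1h2bb in this comparison. It could therefore not call them. Here 6 members lay above 0 and 7 below, with a median of -0.07 against -0.0036 over all genes tested. No member's groups were free of overlap, against 9.57% of all genes. Hist1h2be had the smallest p, with a log2 fold change of 0.44 (SE 0.24, edgeR adjusted p = 0.616). Hist3h2a had -1.30 (SE 0.72, edgeR adjusted p = 0.628), Hist1h1c -0.18 (SE 0.17), Hist2h3c2 -0.45 (SE 0.49) and Hist1h2bc 0.15 (SE 0.21). The 95% interval was -0.55 to 0.19 for Hist1h1c and -0.30 to 0.60 for Hist1h2bc.

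Between METTL3 and chow, edgeR called 0 of 13 members against 3.2% of all genes. At an unadjusted p under 0.05 it had 1 of 13, Hist3h2a, against 21.7% of all genes. DESeq2 and limma voom called 1 member each, though not the same gene, against 10.2% and 20.7% of all genes. Hist3h2a had a log2 fold change of -2.81 (SE 0.76, edgeR adjusted p = 0.0628) and a DESeq2 adjusted p of 0.0055. Its groups did not overlap, as in 18.7% of all genes tested, and the two-sided exact permutation p was 0.0571. Without chow replicate 3 the fold change was -1.55 (edgeR adjusted p = 0.189). The member that limma voom called was Hist1h2bc, at 0.42 (SE 0.14, adjusted p = 0.0419), where edgeR had 0.17 (SE 0.23, adjusted p = 0.712), and 0.50 (adjusted p = 0.117) without chow replicate 3. Hist1h4h had -0.88 (SE 0.50) and 0.38 without that library, Hist1h2be 0.45 (SE 0.26), Hist1h4i -1.16 (SE 0.68) and Hist1h2ac 1.06 (SE 0.72), the last pair at -0.49 and 1.66 without it. The median over the 13 was 0.10, against -0.01 over all genes tested, with 7 above 0 and 6 below. The comparisons with chow share the 3 chow libraries, so their values are not independent.

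**Figure D4:**
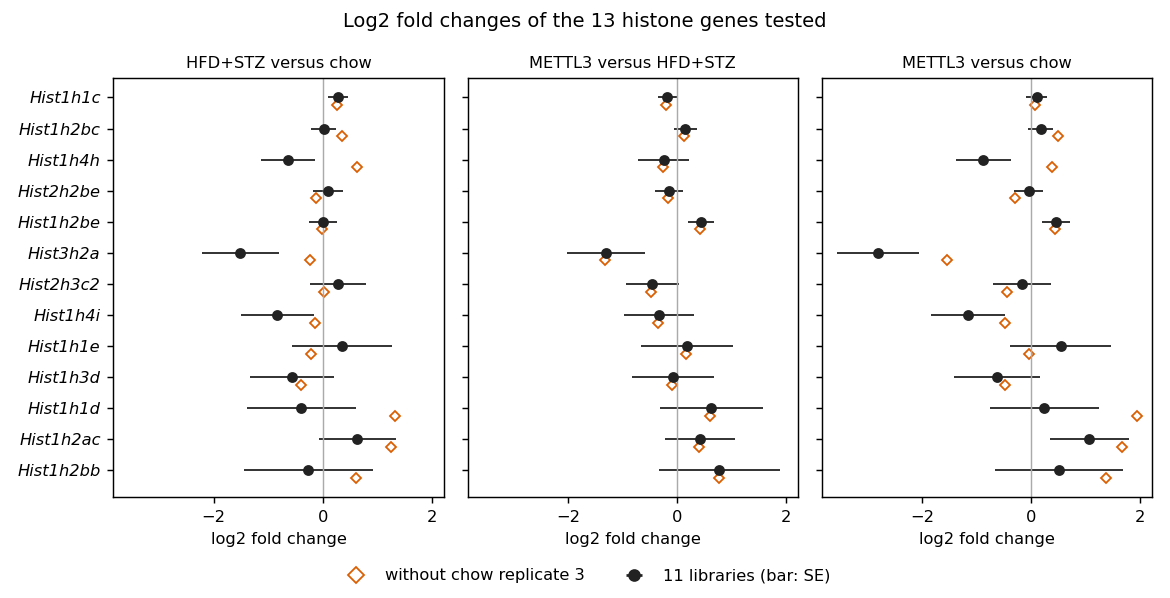
Log2 fold change of each of the 13 tested members in the 3 comparisons (points, with bars for the SE) and the same without chow replicate 3 (open diamonds). Hist1h4h moves from -0.64 to 0.64 between HFD+STZ and chow, and Hist3h2a from -2.81 to -1.55 between METTL3 and chow, when that library is left out.

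Genes that act on these messages were read beside them. The list of histone message synthesis, processing and decay had 20 of 24 genes tested, among them Slbp, the stem-loop binding protein, Npat, the S-phase coactivator of histone genes, Lsm10 and Lsm11 of the U7 particle, and Eri1, an exonuclease that trims the stem-loop end. None was called by edgeR in any of the 3 comparisons, with medians of -0.08 for HFD+STZ against chow, 0.02 for METTL3 against HFD+STZ and -0.02 for METTL3 against chow. Without chow replicate 3 the medians were -0.03, 0.0069 and 0.01, and Upf1, a helicase that acts in histone message decay, was called lower between METTL3 and chow, at -0.75 (edgeR adjusted p = 0.0213), where all libraries gave -0.55 (edgeR adjusted p = 0.133). The summed level of the list was 465 to 478 CPM on chow, 467 to 482 CPM in HFD+STZ and 436 to 456 CPM in METTL3 hearts, where all 4 libraries lay below the others. At an unadjusted edgeR p under 0.05, 1 was higher and 1 lower, 0 and 0, and 1 higher and 4 lower in the order of the comparisons. Of all genes, 12.1%, 9.06% and 21.7% reached that p in the same order. Slbp lay at 10.2, 10.2 and 20.3 CPM on chow, 8.71 to 14.2 CPM in HFD+STZ and 7.17 to 14.8 CPM in METTL3 hearts. Npat went the other way in chow replicate 3, at 3.32 CPM against 11.3 and 9.41 CPM in the other chow libraries, 9.76 to 12.1 in HFD+STZ and 8.06 to 15.7 in METTL3 hearts.

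The replacement variants, 11 genes all tested, summed to 381, 394 and 570 CPM on chow, 324 to 421 CPM in HFD+STZ and 334 to 415 CPM in METTL3 hearts. None was called by edgeR in any comparison with all libraries. In HFD+STZ against chow, METTL3 against HFD+STZ and METTL3 against chow, 1, 2 and 3 were lower at an unadjusted edgeR p under 0.05. None was higher, and in the same order 12.1%, 9.06% and 21.7% of all genes reached that p in either direction. The medians were -0.28, -0.14 and -0.44, and 0.05, -0.16 and -0.22 without chow replicate 3. H3f3b, which encodes H3.3, ranged from 87.6 to 133 CPM over the libraries. The other H3.3 gene, H3f3a, lay at 45.9 to 87.9 CPM on chow, 76.2 to 89.7 CPM in HFD+STZ and 50.1 to 60.4 CPM in METTL3 hearts. Its log2 fold change between METTL3 and HFD+STZ was -0.62 and did not pass (edgeR adjusted p = 0.388). Between METTL3 and chow it was -0.39 (edgeR adjusted p = 0.284), and -0.63 without chow replicate 3, where it was called (edgeR adjusted p = 0.0239). H2afj (-1.87, edgeR adjusted p = 0.055) and H1fx (-2.39, edgeR adjusted p = 0.0638) lay lowest between METTL3 and chow, and at -0.97 and -1.51 without chow replicate 3. The 19 of 20 chaperone and chromatin assembly genes tested had no call by edgeR in any comparison, with medians of 0.18, 0.02 and -0.08 in the same order, and 0.09, 0.0012 and 0.0049 without chow replicate 3. They summed to 630 to 655 CPM on chow, 648 to 719.9 CPM in HFD+STZ and 673 to 751 CPM in METTL3 hearts, so METTL3 libraries lay above all chow libraries and overlapped HFD+STZ.

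Cell cycle genes were compared with the members library by library, since replication-dependent histone genes are transcribed mainly in S phase. None of 32 tested S-phase and replication genes or 22 tested G2 and mitosis genes was called by edgeR in any comparison. The S-phase medians were -0.24, -0.19 and -0.50, and those of G2 and mitosis 0.05, -0.85 and -0.82, in the order HFD+STZ against chow, METTL3 against HFD+STZ and METTL3 against chow. Chow replicate 3 moved those with chow: without it the S-phase medians were -0.10 and -0.26, and those of G2 and mitosis 0.55 and -0.40, for HFD+STZ and METTL3 against chow. HFD+STZ replicate 1 stood at 110 CPM for the sum of the G2 and mitosis genes, where the other HFD+STZ libraries were at 19.2 to 26.9 CPM. For S-phase genes it stood at 221 CPM against 130 to 142 CPM. The sums of members showed no such step: that of all 67 was 158 CPM in that library, the lowest of its group. Hist1h1c and Hist1h2bc made up 81.7% of its histone counts, so this sum says little of the rest. Without that pair the remaining 65 members summed to 28.9 CPM against 29.8 to 36.5 CPM in the others. The 54 members outside the test summed to 4.91 CPM against 4.20 to 5.90 CPM. They held only 88 counts there, so a step in single members could be missed. HFD+STZ replicate 1 also had a sample code (83) apart from those of its group (26 to 28), and the part of this was not tested. Chow replicate 3 was highest for S-phase genes, at 265 CPM, and also for the sum of members, at 208 CPM.

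**Figure D5:**
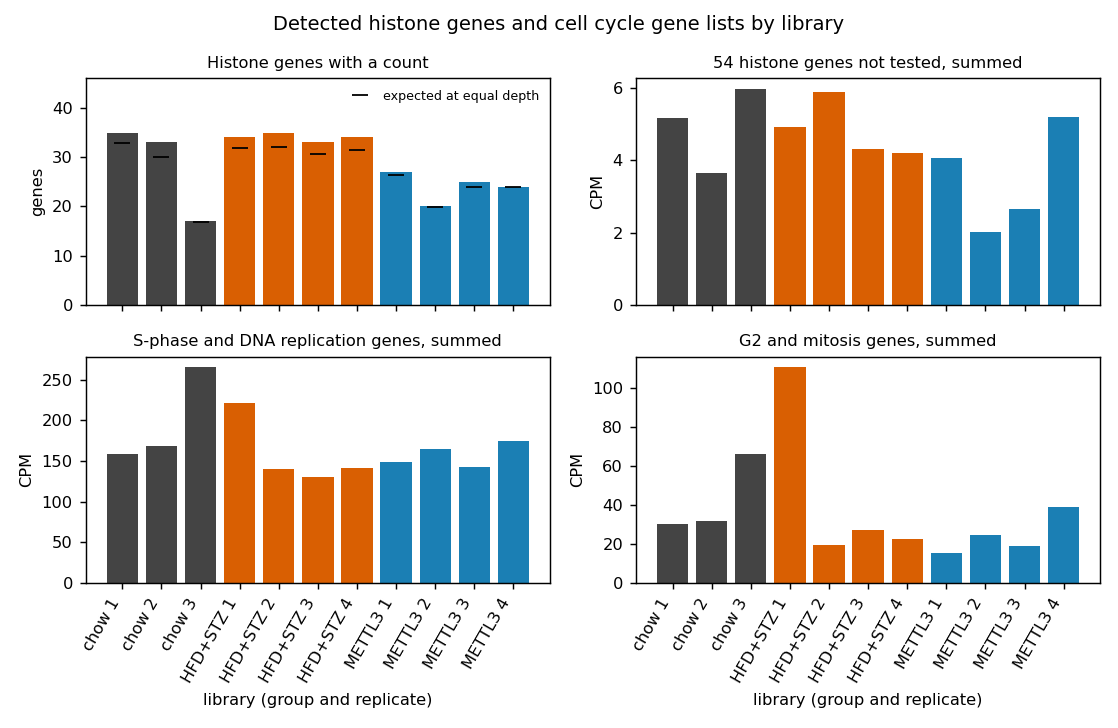
Bars by library show the number of members with a count (with the number expected at equal depth as a dash), the summed CPM of the 54 members not tested, and the summed CPM of S-phase and of G2 and mitosis genes, coloured by group. HFD+STZ replicate 1 reaches 110 CPM for G2 and mitosis genes while its untested members sum to 4.91 CPM.

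Markers of other cell types were read beside the members. Macrophage markers (9 genes) summed to 448 to 889 CPM on chow, 283 to 672 CPM in HFD+STZ and 189 to 334 CPM in METTL3 hearts. Of these, C1qa (-2.57), C1qc (-1.67) and Csf1r (-1.33) were lower in METTL3 than in chow hearts (edgeR adjusted p = 0.0101, 0.0221 and 0.0284), and all 4 METTL3 libraries lay below all chow libraries. C1qa lay at 42.4, 68.2 and 164 CPM on chow, 35.1, 35.8, 48.2 and 30.7 CPM in HFD+STZ and 17.4, 14.9, 19.5 and 9.68 CPM in METTL3 hearts. C1qc lay at 35.3, 56.2 and 83.2 CPM, at 37.0, 28.2, 51.2 and 24.4 CPM, and at 18.3, 20.1, 21.3 and 13.3 CPM in the same order. Csf1r, the receptor for macrophage growth factor CSF1, lay at 57.3, 69.8 and 53.4 CPM, at 37.1, 24.1, 54.01 and 28.9 CPM, and at 24.3, 25.8, 29.7 and 16.04 CPM. Without chow replicate 3, edgeR called 3 of the 9 macrophage markers lower in METTL3 than in chow hearts. The macrophage median was then -1.08, against -1.12 with all libraries. Fold changes of single markers without that library are not given here. All calls by edgeR among the marker lists and the lists above, with all libraries in the fit, were lower in METTL3 than in chow hearts, and the other comparisons had none. Lymphocyte markers summed to 2.70 to 4.97 CPM on chow and to 1.84 to 2.65 CPM in HFD+STZ, narrowly below chow. METTL3 hearts lay at 0.81 to 3.51 CPM, which overlap chow. The lowest chow sum was that of replicate 3, where 6 of the 10 markers had 0 counts. Only 4 of the 10 entered the test, and none was called between HFD+STZ and chow. Hist3h2a was like the called macrophage markers in that its METTL3 libraries lay below all chow libraries, where groups did not overlap in 18.7% of all genes tested. Chow replicate 3 was highest for both the macrophage sum and Hist3h2a. Within HFD+STZ they parted, as replicate 3 had the highest macrophage sum (672 CPM) and the lowest Hist3h2a (0.697 CPM). The part of macrophage content in the Hist3h2a values was not tested. Neutrophil markers were at 45.4 and 48.9 CPM in HFD+STZ replicates 2 and 3 and at 3.02 to 10.2 CPM in the other libraries. Fibroblast markers (2099 to 3586 CPM), endothelial markers (938 to 1506 CPM) and erythroid markers (312 to 2248 CPM, highest in chow replicate 3) had no call. Hist1h1t, Hist1h2aa and Hist1h2ba, the 3 members known from the testis, had 0 counts in every library.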

How the data were processed

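Whole-number counts per gene were deposited by the authors for each of the 11 libraries. Per the submitters' processing notes, FastQC, Salmon and mm10 were used. No source used here gives their versions, the annotation, the strandedness, the treatment of reads that fit several genes, or whether these counts are rounded estimates. Per the labels, a RiboZero kit removed ribosomal RNA. Groups and replicate numbers came from the sample titles. Nothing says that replicates came from separate animals, so the p-values reflect sample-to-sample spread alone, and that spread may be technical. No pair of libraries agreed within sampling noise (lowest chi-square per degree of freedom 14.5).

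The test was edgeR's quasi-likelihood test (edgeR 4.0.16, R 4.3.3) on TMM-scaled libraries in a model of group means over all 11, after filterByExpr (minimum count 10, minimum total 15). Adjusted p-values are Benjamini-Hochberg values over 14862 genes. CPM values use TMM library sizes. Exact two-sided permutation tests used log2 CPM with 0.1 added, and the smallest p they can give is 0.0286. The procedure was also run on simulated counts, and the outcome is not given here. Those counts held no outlying library such as chow replicate 3, so that run does not cover such a case. Alternatives were DESeq2 1.42.0, limma 3.58.1 voom with quality weights, scaling by upper quartile, by DESeq2 size factors or on nuclear genes only, no filter or a stricter one (1 CPM in 3 libraries), a fit of just the groups compared, a replicate block, a covariate for the sample code range (25 to 33 or 78 to 98), loess offsets (span 0.5) on gene length and GC content, these with the block, and leaving out each library. All chow libraries were in the higher code range, with only HFD+STZ replicate 1 and METTL3 replicate 4 of the other groups. In the comparisons with chow, group and code range are therefore largely confounded. What the codes stand for is not stated. Thinning for detected members and the values without chow replicate 3 were added after seeing the data.

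The members, gene lists and tests were chosen with earlier results of these data known. Per-library values or ranges are given for the 12 members with the highest mean CPM, for the called genes except 1 marker gene that is not reported here, and fold changes for the 5 members with the smallest p where none passed; a few others are named as chosen after their values were seen. Gene models and windows came from GENCODE M21, and promoters from RefSeq (GRCm38.p6), where Hist1h2bc, Hist1h3a, Hist2h2be, Hist1h3f and Hist2h4 had no entry. The span of a member overlaps another gene in 24 cases, and without a stated strand setting such reads cannot be told apart.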

Additional observations from a re-analysis of the deposited data

Results flagged for a closer look

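In groups of 4, a library was picked out where its gap to the nearest other library, divided by the group's range, was above Dixon's critical value at the 95% level. Chance alone gives this in about 1 in 20 groups, and 62 groups of values were examined. Among the histone genes, METTL3 replicate 2 lay at 73.3 CPM for Hist1h2bc, where the other METTL3 libraries lay at 53.3 to 54.8 CPM, and for the sum of H2B genes at 87.2 CPM against 68.3 to 68.6 CPM, a sum that Hist1h2bc dominates. METTL3 replicate 4 lay at 1.88 CPM for Hist2h3c2 against 0.831 to 0.919 CPM. Among the lists read beside them, HFD+STZ replicate 1 lay at 110 CPM for G2 and mitosis genes against 19.2 to 26.9 CPM and at 221 CPM for S-phase genes against 130 to 142 CPM. METTL3 replicate 3 lay at 3580 CPM for fibroblast markers against 2441 to 2486 CPM. The chow group of 3 was too small for this check.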

How the results depend on the processing

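Low counts kept 54 of 67 members out of the tests. DESeq2 also gave some tested members no adjusted p in HFD+STZ against chow and in METTL3 against HFD+STZ. The count of called members was 0 under all 23 alternatives for HFD+STZ against chow and for METTL3 against HFD+STZ. For METTL3 against chow it was 1 with DESeq2, 1 with limma voom, 1 with no filter, and 0 to 1 when each library was left out, where the 1 was Hist3h2a without chow replicate 1 (edgeR adjusted p = 0.0431). Over its alternatives the Hist3h2a log2 fold change there ran from -3.39 to -1.50 and its adjusted p from 0.0055 to 0.312. The member median ran from -0.32 to 0.27, -0.21 to 0.09 and -0.28 to 0.19 for HFD+STZ against chow, METTL3 against HFD+STZ and METTL3 against chow, so its sign was not stable.

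Direction reversed for Hist1h4h in HFD+STZ against chow with limma voom (0.40) and without chow replicate 3 (range -1.04 to 0.64 when each library was left out), for Hist1h4i there with limma voom (0.26), for Hist1h4h in METTL3 against chow with limma voom (0.13) and without chow replicate 3 (range -1.30 to 0.38), and for Hist1h1c in METTL3 against HFD+STZ with loess offsets (0.034). The cause was not tested.

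Calls among the companion lists numbered 0 for HFD+STZ against chow and became 14 with limma voom, 2 with no filter and 0 to 1 when each library was left out. They numbered 0 for METTL3 against HFD+STZ and became 4 with DESeq2 and 6 with limma voom. They numbered 4 for METTL3 against chow and became 18 with DESeq2, 32 with limma voom, 8 with no filter, 0 with only the groups compared, 0 with the sample code range, and 1 to 8 when each library was left out (8 without chow replicate 1, 6 without chow replicate 3, 1 without chow replicate 2 or METTL3 replicate 1, 3 or 4, and 2 without METTL3 replicate 2). Same-numbered libraries did not deviate together (correlations of -0.23 to 0.16, above 0.1 in 2 of 10 pairs), so the numbers were not taken as pairs. With the replicate block the METTL3 against chow calls in these lists were 0, and 1 with the block and loess offsets, while called members stayed at 0 in all 3 comparisons.

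Over all 14862 genes the calls ranged over the alternatives from 0 to 1954, 0 to 395 and 1 to 3078. The summed CPM of all members scaled to nuclear counts alone was 249.7 for chow, 251.0 for HFD+STZ and 244.4 for METTL3, and scaled to raw library totals it was 200.2, 175.1 and 143 in that order.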
